A study of Mus musculus with 18 samples.

Results

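The E2F family and its pocket protein partners were followed through all 6 conditions of the RNA-Seq experiment. They were the 10 genes *E2f1*, *E2f2*, *E2f3*, *E2f4*, *E2f5*, *E2f6*, *E2f7*, *E2f8*, *Rb1* and *Rbl1*, taken by symbol from the 55450 genes of the count table. ED1SQ4 is a murine lung cancer cell line derived from tumors of mice that carry a cyclin E transgene. The cells were cultured for 72 hours with vehicle or with 0.5 µM CYC065, an inhibitor of CDK2 and CDK9, and the RNA of unsorted cells was sequenced beside that of 2N and 4N cells sorted on a live-cell DNA stain. The study calls the sorted fractions diploid and polyploid. A 4N DNA content is shared by cells in G2 or mitosis and by polyploid cells before replication, and these cannot be told apart here.

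E2F proteins bind the promoters of genes needed for DNA replication and mitosis. E2F1, E2F2 and E2F3 activate those genes once they are released from the retinoblastoma protein, which is encoded by *Rb1*. E2F4 and E2F5 act mainly with the related pocket proteins encoded by *Rbl1* and *Rbl2* in the repressor complex DREAM. E2F6 does not bind pocket proteins and works with a Polycomb complex, while the atypical E2F7 and E2F8 repress without a pocket protein or a dimer partner. Cyclin D with CDK4 or CDK6, and cyclin E with CDK2, phosphorylate the pocket proteins and so release the activators. Several genes of the family, *E2f1*, *E2f7*, *E2f8* and *Rbl1* among them, are themselves known E2F targets in cycling cells.

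Each condition had 3 columns of counts. The sample titles call them replicates, whereas their library names give them as parts of a single library. Parts of one library differed by no more than sampling noise over genes with whole counts (chi-square per degree of freedom 0.992 to 1.02). Over genes with fractional counts the values were 4.94 to 8.85, and over all genes 1.62 to 2.24. Pairs of libraries gave 41.2 to 1117, but on summed counts and between different conditions, so these values cannot be set against those of the parts. Going by the library names and the whole-count genes, the parts were summed and counted as 1 sample. Every condition thus had n = 1 library and no test between conditions was possible. Library totals ran from 54750168 to 62795451 counts. The 95% intervals given below cover counting error only, and spread between cultures was not measured. None of the lung markers was above 0.0750 counts per 1e6 (CPM) in any library and epithelial *Epcam* did not exceed 0.0186 CPM, whereas mesenchymal *Vim* lay between 2144 and 4628 CPM and fibroblast *Col1a1* between 2663 and 5876 CPM. The lung and epithelial origin of the line was thus not visible in its markers. Because these are bulk libraries, fewer cells that express a gene and less of its RNA per cell cannot be told apart.

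Promoter sequences are shown for *E2f7*, *E2f8* and *Rbl1*, known E2F targets with large ratios between treatments, and for *E2f3* because it held both motifs searched. RefSeq entries (GRCm38.p6) were matched for 7 of the 10 genes. The 250 bases before the start site are printed 5′ to 3′ on the gene's strand for *E2f7* (chr10:110745189-110745438, plus strand), *E2f8* (chr7:48881597-48881846, minus strand) and *Rbl1* (chr2:157204535-157204784, minus strand), and the last 43 bases for *E2f3* (chr13:29986064-29986106, minus strand). Capitals mark an E2F-type motif (TTTCCCGC, TTTCGCGC, TTTGCCGC or TTTGGCGC on either strand) or the cell cycle homology region motif TTTGAA on either strand, which belongs to DREAM and MuvB target promoters.
*E2f7*: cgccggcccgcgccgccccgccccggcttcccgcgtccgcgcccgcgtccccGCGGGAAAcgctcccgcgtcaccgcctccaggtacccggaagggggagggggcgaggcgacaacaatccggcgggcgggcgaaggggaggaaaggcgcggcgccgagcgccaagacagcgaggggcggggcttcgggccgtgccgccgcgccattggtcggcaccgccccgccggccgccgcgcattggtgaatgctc
*E2f8*: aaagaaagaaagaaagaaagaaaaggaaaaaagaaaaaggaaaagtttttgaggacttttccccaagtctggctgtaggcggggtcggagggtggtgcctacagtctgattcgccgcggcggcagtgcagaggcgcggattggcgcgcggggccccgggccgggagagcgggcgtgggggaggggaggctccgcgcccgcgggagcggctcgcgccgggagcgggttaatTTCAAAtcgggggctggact
*Rbl1*: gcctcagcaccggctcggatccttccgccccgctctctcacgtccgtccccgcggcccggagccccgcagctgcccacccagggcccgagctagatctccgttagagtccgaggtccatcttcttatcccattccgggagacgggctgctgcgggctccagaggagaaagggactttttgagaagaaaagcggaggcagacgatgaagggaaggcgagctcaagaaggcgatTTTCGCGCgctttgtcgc
*E2f3*: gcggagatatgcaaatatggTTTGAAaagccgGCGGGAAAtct

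An E2F-type motif was found in 3 of the 7 genes, which had 9 windows between them. The motif began 18 bases before the start of *Rbl1*, 11 bases before the first start of *E2f3* and 198 bases before the start of *E2f7*. The window of the second *E2f3* start held neither motif. The *E2f1* window (chr2:154569427-154569676) lay inside the annotated gene, whose start on the minus strand is at 154569892. The bases before that annotated start were not searched, so the lack of a motif for *E2f1* does not describe them. Of all 32851 RefSeq windows of this length, 1.86% held at least 1 of the 4 forms. The TTTGAA motif was present in 16.0% of all windows. It lay 20 bases before the start of *E2f8*, 23 bases before the first start of *E2f3* and 31 bases before the second start of *E2f2*. These are matches of letters, and binding was not measured.

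CYC065-treated libraries held less RNA for 8 of the 10 genes and more for *E2f5* and *Rb1*, in 2N, 4N and unsorted cells alike. In 2N cells, 5 genes were more than 2-fold lower after CYC065 (*E2f1*, *E2f2*, *E2f7*, *E2f8* and *Rbl1*), beside 11.5% of the 14090 genes compared, and none was more than 2-fold higher, beside 16.2%. In 4N cells, 4 genes were more than 2-fold lower, beside 10.1% of 14183, and none was higher by that much, beside 15.5%. In unsorted cells, 5 were more than 2-fold lower and 1 higher, beside 12.6% of 14082 in each direction. The median log2 ratio of the 10 genes was -1.09 in 2N, -0.87 in 4N and -1.12 in unsorted cells, while that of all genes compared was 0.00, 0.03 and -0.01. All 10 genes passed the minimum of 30 summed counts in at least 1 of the libraries compared. Pocket protein gene *Rbl1* had the lowest ratio of the 10 in each of these comparisons.

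**Figure D1:**
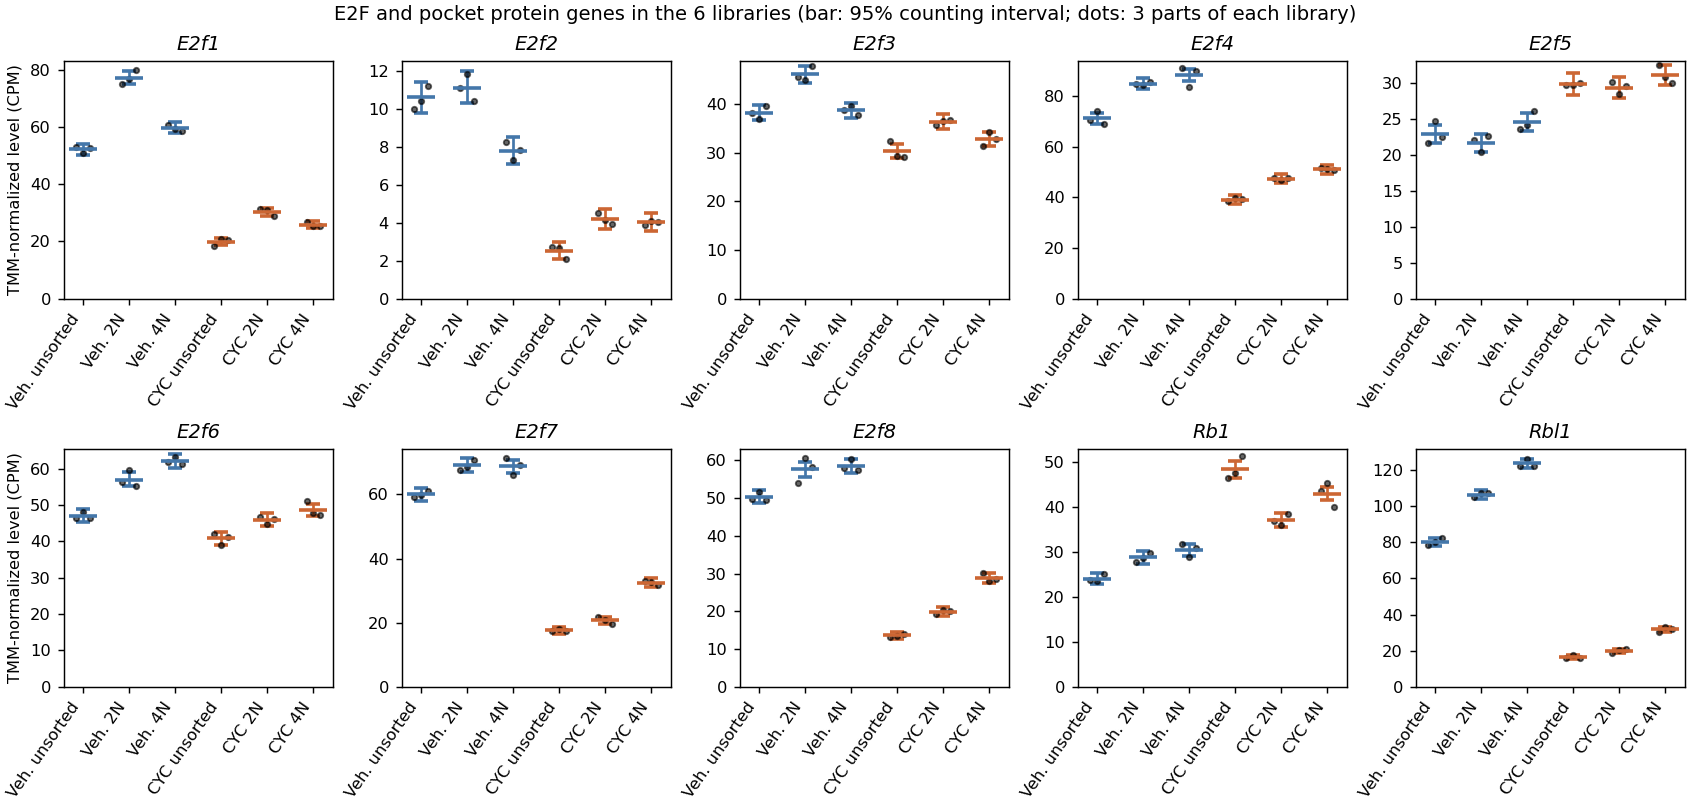
Level of each gene in the 6 libraries, in TMM-normalized CPM on axes that start at 0, with vehicle in blue and CYC065 in orange. Horizontal bars are the library's level, whiskers its 95% counting interval and dots the 3 parts of the same library, which are not separate cultures. *Rbl1* lay between 80.2 and 124 CPM with vehicle and between 16.6 and 31.8 CPM with CYC065, whereas *Rb1* and *E2f5* were higher in each CYC065 library than in each vehicle library.

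Among the activators, *E2f1* and *E2f2* were lower after CYC065, and *E2f3* differed less. *E2f1* stood at 52.1 CPM in unsorted, 77.2 CPM in 2N and 59.6 CPM in 4N cells with vehicle, and at 19.9, 30.3 and 25.9 CPM with CYC065. Each CYC065 library thus lay below all 3 vehicle libraries, and the 2N library was the highest under both treatments. The 3 fractions are not replicates of a treatment. How many of all genes had their treatments separated in this way, here and below, was not counted. The log2 ratio of CYC065 to vehicle was -1.35 (95% counting interval -1.43 to -1.27) in 2N, -1.20 (-1.29 to -1.12) in 4N and -1.38 (-1.49 to -1.28) in unsorted cells, or 2.54-fold, 2.30-fold and 2.61-fold lower.

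*E2f2* was the least abundant of the family, with 134 counts in unsorted CYC065-treated cells as the lowest count of any of the 10 genes. Its levels were 10.6, 11.1 and 7.79 CPM in unsorted, 2N and 4N cells with vehicle, and 2.50, 4.17 and 4.01 CPM with CYC065. The log2 ratio was -2.08 (-2.36 to -1.81) in unsorted, -1.41 (-1.63 to -1.20) in 2N and -0.96 (-1.18 to -0.74) in 4N cells. The 4N value was just short of 2-fold, and its interval held 2-fold.

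*E2f3* levels were 38.2, 46.1 and 38.7 CPM in unsorted, 2N and 4N cells with vehicle and 30.4, 36.3 and 32.8 CPM with CYC065. All 3 CYC065 libraries lay below the lowest vehicle library, but by a small margin. The log2 ratio was -0.34 (-0.43 to -0.26) in 2N and -0.24 (-0.32 to -0.15) in 4N cells. Of the 3 activators *E2f3* thus had the smallest ratio in each fraction. An antisense gene, Gm11365, overlaps *E2f3*, and whether the counting used the strand is not given in the sources used here.

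The pocket-binding repressors had ratios of opposite sign. *E2f4*, the main E2F of resting cells, stood at 71.2, 84.9 and 88.3 CPM in unsorted, 2N and 4N cells with vehicle and at 39.1, 47.4 and 51.1 CPM with CYC065. Each CYC065 library lay below each vehicle library, and the log2 ratio was -0.84 (-0.91 to -0.77) in 2N, -0.79 (-0.85 to -0.73) in 4N and -0.86 (-0.94 to -0.79) in unsorted cells. *E2f5* stood at 22.9, 21.7 and 24.6 CPM with vehicle and at 29.9, 29.4 and 31.1 CPM with CYC065. Its 3 CYC065 libraries were the highest, with a log2 ratio of 0.44 (0.33 to 0.54) in 2N, 0.34 (0.24 to 0.44) in 4N and 0.38 (0.27 to 0.49) in unsorted cells. A gene on the opposite strand, 1810022K09Rik, overlaps *E2f5*.

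*E2f6*, the Polycomb-linked member, stood at 47.0, 57.0 and 62.1 CPM in unsorted, 2N and 4N cells with vehicle and at 40.8, 45.9 and 48.7 CPM with CYC065. The 4N library with CYC065 exceeded the unsorted library with vehicle, so the treatments overlapped across fractions. Within fractions the log2 ratio was -0.31 (-0.39 to -0.24) in 2N, -0.35 (-0.42 to -0.28) in 4N and -0.20 (-0.28 to -0.12) in unsorted cells.

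The atypical repressors *E2f7* and *E2f8* were the E2F genes in which the sorted fractions parted most after CYC065. *E2f7* stood at 60.0 CPM in unsorted, 69.1 in 2N and 68.8 in 4N cells with vehicle, and at 17.6, 20.7 and 32.5 CPM with CYC065. *E2f8* stood at 50.4, 57.7 and 58.6 CPM with vehicle and at 13.6, 19.9 and 28.9 CPM with CYC065. For both genes the vehicle libraries of 2N and 4N cells were almost level, whereas the 4N library was the highest of the 3 CYC065 libraries and still below each vehicle library. The log2 ratio of CYC065 to vehicle was -1.74 (-1.84 to -1.65) for *E2f7* and -1.54 (-1.64 to -1.44) for *E2f8* in 2N cells, that is 3.34-fold and 2.90-fold lower. In 4N cells it was -1.08 (-1.16 to -1.01) and -1.02 (-1.10 to -0.94), or 2.12-fold and 2.03-fold lower, and the interval for *E2f8* held 2-fold. With scaling to library size alone the 4N value of *E2f7* stayed only just past 2-fold, and that of *E2f8* was -0.94, short of it. In unsorted cells the ratio was -1.77 (-1.87 to -1.66) for *E2f7* and -1.89 (-2.01 to -1.77) for *E2f8*. Noncoding genes overlap both, 1700020G17Rik at *E2f7* and Gm2788 at *E2f8*.

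The pocket protein genes *Rb1* and *Rbl1* differed in direction. *Rbl1*, which encodes the pocket protein that is most abundant in cycling cells, stood at 80.2 CPM in unsorted, 106 CPM in 2N and 124 CPM in 4N cells with vehicle, and at 16.6, 19.7 and 31.8 CPM with CYC065. The lowest vehicle library was thus above the highest CYC065 library by a wide margin, and 4N cells were highest under both treatments. The counts behind these levels in 2N cells were 6126 with vehicle and 1122 with CYC065. The log2 ratio was -2.43 (-2.52 to -2.34) in 2N, -1.96 (-2.03 to -1.89) in 4N and -2.28 (-2.38 to -2.17) in unsorted cells, or 5.39-fold, 3.88-fold and 4.84-fold lower. Of all genes compared, 0.568% had a lower ratio in 2N cells and 1.59% in 4N cells.

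*Rb1* stood at 24.1, 28.8 and 30.5 CPM in unsorted, 2N and 4N cells with vehicle and at 48.5, 37.2 and 43.0 CPM with CYC065. All CYC065 libraries were higher than all vehicle libraries, and the unsorted CYC065 library was the highest. The log2 ratio was 0.37 (0.28 to 0.46) in 2N, 0.50 (0.41 to 0.58) in 4N and 1.01 (0.91 to 1.10) in unsorted cells. The unsorted value was 2.01-fold, its interval held 2-fold, and it became 0.90 with scaling to library size alone and 0.99 without the third part of each library. *Rb1* was also the member whose parts differed most (chi-square per degree of freedom 1.66, against 0.592 to 1.06 for the others), and *Rcbtb2*, *Lpar6*, Gm17233 and Mir687 overlap it.

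*Rbl2*, the remaining pocket protein gene, was also higher after CYC065. It stood at 33.1, 18.8 and 19.3 CPM in unsorted, 2N and 4N cells with vehicle and at 61.7, 46.7 and 43.6 CPM with CYC065, a log2 ratio of 1.31 (1.21 to 1.41) in 2N, 1.17 (1.08 to 1.27) in 4N and 0.90 (0.82 to 0.98) in unsorted cells. The CYC065 libraries were again all above the vehicle libraries.

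**Figure D2:**
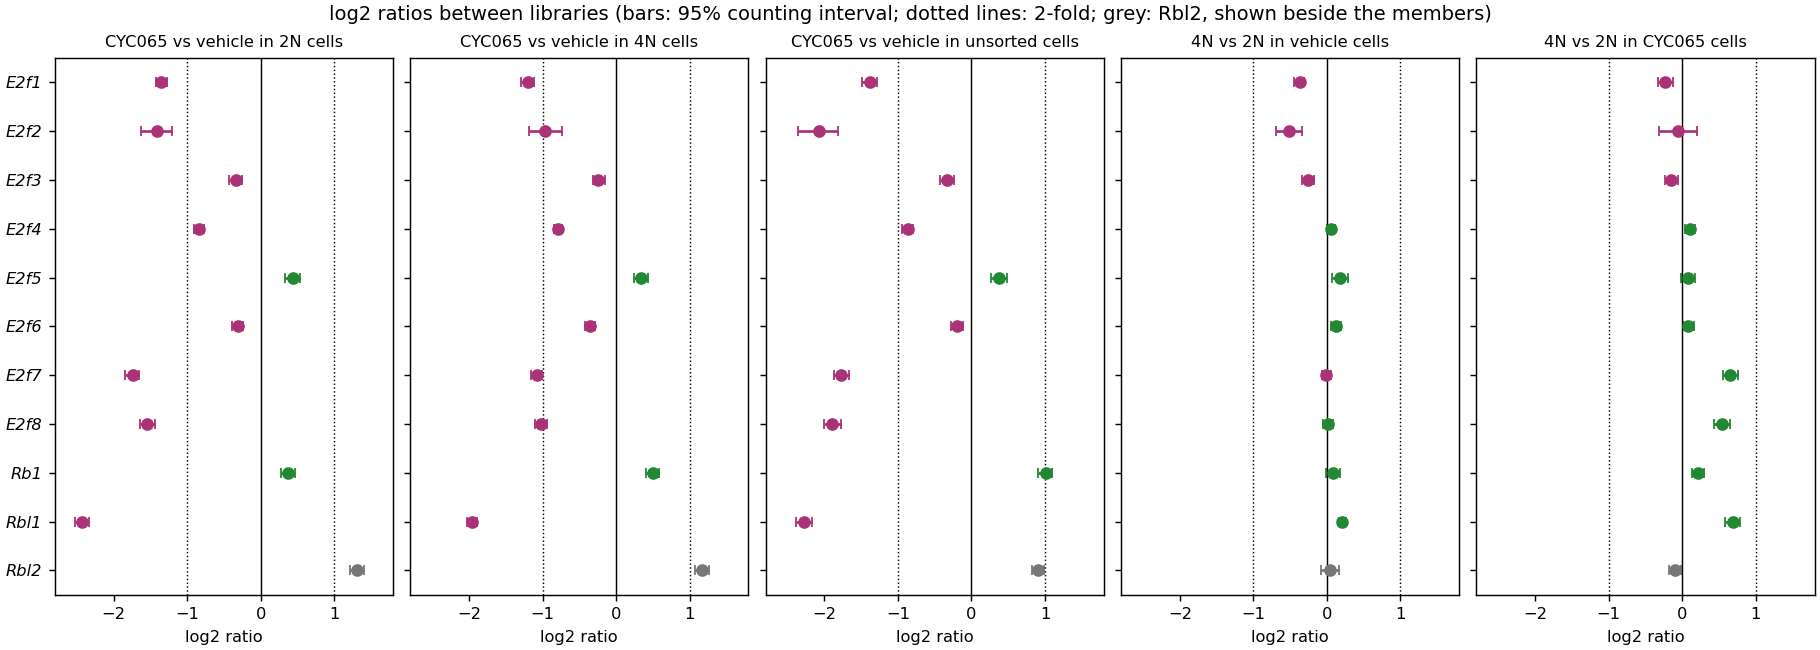
Ratio between libraries on a log2 scale for the 10 genes and, in grey, *Rbl2*, in the 5 comparisons of paired libraries. Points are the ratio (magenta below 0, green above 0), bars the 95% counting interval and dotted lines mark 2-fold. *Rbl1* had the lowest value in each drug comparison (-2.43, -1.96 and -2.28), and in the comparison of 4N with 2N CYC065-treated cells *E2f7*, *E2f8* and *Rbl1* lay apart at 0.65, 0.54 and 0.69.

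The make-up of the pocket protein transcripts therefore changed more than their sum. Levels were divided by the length of the longest coding transcript to compare genes, giving CPM per kilobase. With vehicle, *Rbl1* made up 58.1% of the sum of *Rb1*, *Rbl1* and *Rbl2* in unsorted, 68.7% in 2N and 70.8% in 4N cells. With CYC065 it made up 12.9%, 18.9% and 26.6%, the lowest share of the 3 genes in each library. *Rb1* went from 19.4% to 37.1% in 2N cells and from 18.3% to 37.5% in 4N cells, and *Rbl2* from 12.0% to 44.0% and from 10.9% to 35.9%. The sum itself was 28.4, 31.9 and 35.9 CPM per kilobase with vehicle and 26.3, 21.5 and 24.6 with CYC065. *Rbl1* remained the largest contributor with vehicle and the smallest with CYC065 when the merged length of all exons was used, whereas *Rb1* and *Rbl2* then tied in 2N CYC065-treated cells at 39.5% each.

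Among the E2F genes, *E2f4* had the highest and *E2f2* the lowest level per kilobase of longest coding transcript in all 6 libraries. With merged exon lengths *E2f2* was again the lowest in all 6, but *E2f5*, at 16.8, stood above *E2f4*, at 16.0, in unsorted CYC065-treated cells. In 2N cells with vehicle the order was *E2f4* at 42.6, *E2f1* at 28.0, *E2f6* at 23.6, *E2f8* at 15.6, *E2f7* at 12.6, *E2f5* at 12.2, *E2f3* at 9.05 and *E2f2* at 2.34 CPM per kilobase. In 2N cells with CYC065 it was *E2f4* at 23.8, *E2f6* at 19.0, *E2f5* at 16.5, *E2f1* at 11.0, *E2f3* at 7.13, *E2f8* at 5.38, *E2f7* at 3.78 and *E2f2* at 0.880. *E2f5* thus stood above *E2f1*, *E2f7* and *E2f8* in 2N cells with CYC065 and below all of them in 2N cells with vehicle, where its counting interval overlapped that of *E2f7*. With merged exon lengths *E2f5*, at 12.2, was already above *E2f8* (10.6) and *E2f7* (7.67) in 2N cells with vehicle, and of these 3 genes only *E2f1* changed place with it between the treatments. The place of *E2f6* also depends on the length chosen, since its merged exons are 5663 bases and its longest coding transcript 2418 bases. The shares of the 3 activators were 23.6%, 27.0% and 21.6% in unsorted, 2N and 4N cells with vehicle and 18.6%, 21.7% and 17.8% with CYC065. *E2f4*, *E2f5* and *E2f6* together made up 56.1%, 53.7% and 58.6% with vehicle and 72.1%, 67.8% and 67.5% with CYC065. *E2f7* and *E2f8* made up 20.3%, 19.3% and 19.9% with vehicle and 9.33%, 10.5% and 14.7% with CYC065.

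**Figure D3:**
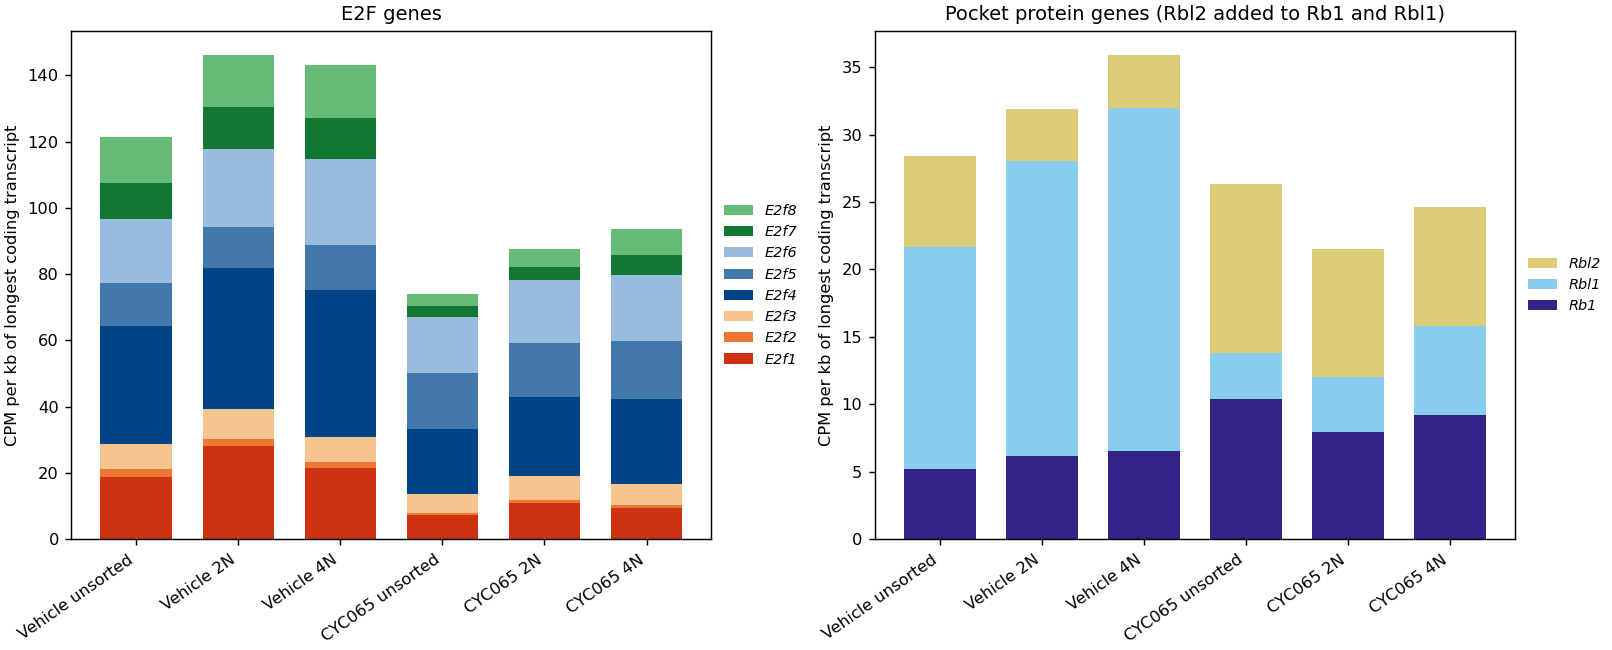
Stacked bars of the level per kilobase of longest coding transcript (CPM per kilobase) of the E2F genes (left) and of *Rb1*, *Rbl1* and *Rbl2* (right) in each library, without replicates. The E2F sum was 121, 146 and 143 in unsorted, 2N and 4N cells with vehicle and 73.9, 87.5 and 93.7 with CYC065, and *Rbl1* was the largest pocket protein segment with vehicle and the smallest with CYC065.

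The comparison of 4N with 2N cells asked which transcripts distinguish cells with doubled DNA content. With vehicle, none of the 10 genes differed by more than 2-fold, beside 1.69% of 13365 genes lower and 0.995% higher in 4N cells, and the median log2 ratio of the 10 was 0.04 (all genes 0.00). The activators were the lowest, with -0.37 (-0.44 to -0.31) for *E2f1*, -0.51 (-0.69 to -0.34) for *E2f2* and -0.25 (-0.34 to -0.17) for *E2f3*. *E2f4* (0.06), *E2f7* (-0.01), *E2f8* (0.02) and *Rb1* (0.08) had intervals that held 0, and *Rbl1* was at 0.21 (0.17 to 0.26). *E2f5* was at 0.18 (0.07 to 0.29) and *E2f6* at 0.12 (0.06 to 0.19).

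With CYC065, again none of the 10 passed 2-fold, beside 2.08% of 14180 genes lower and 1.48% higher in 4N cells. *Rbl1* was 1.61-fold, *E2f7* 1.57-fold and *E2f8* 1.45-fold higher in 4N than in 2N cells, with log2 ratios of 0.69 (0.58 to 0.79), 0.65 (0.55 to 0.76) and 0.54 (0.43 to 0.65). Of all genes compared, 3.27%, 3.55% and 4.90% had higher ratios than these 3. *E2f1* was at -0.23 (-0.33 to -0.13), *E2f3* at -0.15 (-0.24 to -0.06) and *E2f2* at -0.06 (-0.32 to 0.20). *Rb1* was at 0.21 (0.13 to 0.29), *E2f4* at 0.11 (0.04 to 0.18), and *E2f5* and *E2f6* at 0.08 each.

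The difference between the 4N-to-2N log2 ratios of CYC065 and vehicle, which equals the difference between the drug ratios of the 2 fractions, did not pass 1 for any of the 10 genes, beside 3.60% of 14482 genes below -1 and 3.48% above 1. It was 0.66 (0.54 to 0.78) for *E2f7*, 0.52 (0.39 to 0.64) for *E2f8*, 0.47 (0.36 to 0.59) for *Rbl1* and 0.45 (0.15 to 0.76) for *E2f2*. The other genes lay between -0.10 for *E2f5* and 0.14 for *E2f1*. With 1 library per condition this difference could not be tested, and all comparisons of sorted cells draw on the same 4 libraries.

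In unsorted cells most of the 10 genes, like most of all genes, lay outside the range of the sorted fractions. With vehicle, 8 of 10 were below both sorted libraries, none was above both and 2, *E2f2* and *E2f5*, were between them. With CYC065, 8 were below, 1, *Rb1*, was above and 1, *E2f5*, was between. Over all genes, 43.5% were below and 41.8% above both sorted libraries with vehicle, and 42.9% and 38.8% with CYC065. Lying outside thus did not mark the 10 genes out, but they lay mostly below, while all genes were split nearly evenly. Unsorted and sorted cells differed in staining and sorting, and which cells fell outside the sort gates is not given in the sources used here, so these cannot be told apart.

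The dimer partners and the DREAM and MuvB genes, a list of 10, were mixed. In 2N cells 3 were more than 2-fold lower and 1 higher, with a median of -0.43, and in 4N cells 3 lower and 1 higher, with a median of -0.13. For this list and those below, the shares of all genes past 2-fold after CYC065 stand beside the counts. They were 11.5% lower and 16.2% higher in 2N, 10.1% and 15.5% in 4N, and 12.6% in each direction in unsorted cells. *Tfdp1*, which encodes the main E2F dimer partner, had a log2 ratio of -1.26 in 2N and -1.08 in 4N cells, and the other partner gene *Tfdp2* 0.53 and 0.68. The MuvB-binding activators *Mybl2* (-2.28 and -1.75) and *Foxm1* (-1.91 and -1.45) were lower, and the gene on the higher side was *Rbl2*. In unsorted cells *Mybl2*, *Foxm1* and *Tfdp1* were again more than 2-fold lower, at -2.24, -1.86 and -1.05, and none was higher by that much. *Tfdp1*, *Mybl2* and *Foxm1* had fractional counts in 17 or 18 of 18 columns, a mark of reads shared with other loci, and are uncertain to that extent.

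Of the kinases, cyclins and inhibitors that act on the pocket proteins, 14 of 15 had enough counts. The D-type cyclin gene *Ccnd1* stood at 614 CPM in 2N cells with vehicle and 258 with CYC065 (log2 ratio -1.25, and -1.75 in 4N cells), and its partner kinase gene *Cdk4* at 283 and 118 CPM (-1.26, and -1.49 in 4N cells). *Ccne2*, a cyclin E gene, had -1.13 in 2N and -1.28 in 4N cells, and *Ccne1* -0.88 and -1.07. Not all cyclin and kinase genes were lower. *Ccnd2* had 0.91 in 2N, 0.52 in 4N and 0.50 in unsorted cells, and *Cdk6* 0.30, 0.31 and 0.69. *Ccnd3* had -0.51, -0.66 and -0.33, and *Cdk2* -0.88, -0.46 and -0.58. Inhibitor genes lay on both sides. *Cdkn1b*, which encodes p27, stood at 28.8 and 91.9 CPM in 2N cells with vehicle and CYC065, a log2 ratio of 1.67 (1.46 in 4N cells), and the INK4 genes *Cdkn2a* and *Cdkn2b* had 1.30 and 1.10 in 2N and 1.17 and 0.77 in 4N cells. In unsorted cells *Ccnd1* (-1.79) and *Ccne2* (-1.58) were the lowest and *Cdkn2a* (1.17) the highest. The inhibitor gene *Cdkn1a*, which encodes p21, had -0.28 in 2N, -0.58 in 4N and -1.17 in unsorted cells, and *Cdkn2d* -0.18, -0.32 and -0.49, while *Cdkn2c* had -0.34, 0.15 and -0.82. In all, 3 genes were more than 2-fold lower and 3 higher in 2N cells (median -0.31), 4 and 2 in 4N cells (median -0.39), and 5 and 1 in unsorted cells (median -0.53). *Cdkn1c* was at or near 0 in all libraries.

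The G1/S genes known as E2F targets, 35 genes of DNA replication and nucleotide synthesis, had lower levels as a group after CYC065. In 2N cells 25 of 35 were more than 2-fold lower and none higher, with a median of -1.52, in 4N cells 22 of 35, with a median of -1.10, and in unsorted cells 29 of 35, with a median of -1.63. *Prim1*, a DNA primase subunit gene, stood at 78.1 CPM in 2N cells with vehicle and 8.36 CPM with CYC065 (log2 ratio -3.22, and -2.65 in 4N cells), and thymidine kinase *Tk1* at 128 and 15.2 CPM (-3.07 and -2.51). At the other end, the licensing factor gene *Cdt1* was at -0.03 in 2N and 0.14 in 4N cells. Between fractions, 27 of 35 were lower in 4N than in 2N cells with vehicle (median -0.17), while 29 of 35 were higher with CYC065 (median 0.33). The gene past 2-fold with vehicle was *Ung*, a uracil glycosylase gene, at -1.09. Of the 35 genes, 34 had a higher 4N-to-2N ratio with CYC065 than with vehicle, with a median difference of 0.39 (all genes 0.01). *Brca1*, which acts in homologous recombination, had a difference of 0.84. Fractional counts occurred in 18 of 18 columns for *Mcm7* and *Pcna*, 15 for *Uhrf1*, 14 for *Rrm2* and 1 for *Tyms*.

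The G2/M genes known as MuvB, B-Myb and FoxM1 targets were read beside them, since 4N cells include cells in G2 and mitosis. All 17 were higher in 4N than in 2N cells with vehicle, with a median log2 ratio of 0.71 and none past 2-fold, and all 17 were higher with CYC065, with a median of 1.25 and 15 past 2-fold. The study had already reported several of the 17 as higher in 4N than in 2N cells after CYC065. Among them were *Ccna2*, *Ccnb1*, *Cdk1*, *Plk1*, *Aurka*, *Cdc20*, *Cdc25c* and *Kif2c*. The RNA-Seq part of that report used these same libraries, so the counts with CYC065 are not independent of it. The study also reported these named genes as increased in polyploid against diploid cells after CYC065 by real-time PCR. The lead genes of the 17 were *Nusap1* and *Cenpf*, a spindle and a kinetochore gene, at 1.75 and 1.57 with CYC065. These genes were thus higher in the 4N library in both treatments, and the part of G2 and mitotic cells in the 4N values of *E2f7*, *E2f8* and *Rbl1* was not tested. After CYC065, 14 of 17 were more than 2-fold lower in 2N cells (median -1.42), 3 in 4N cells (median -0.77) and 16 in unsorted cells (median -1.48). *Ube2c*, which encodes a ubiquitin-conjugating enzyme of mitotic exit, was the lowest at -2.33 in 2N and -1.79 in 4N cells, followed by topoisomerase gene *Top2a* (-1.92) in 2N cells, and *Plk1* (-1.08) and *Cdk1* (-1.02) were the others past 2-fold in 4N cells. Fractional counts occurred in 17 of 18 columns for *Ccnb1*, 6 for *Plk1* and 4 for *Top2a*.

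**Figure D4:**
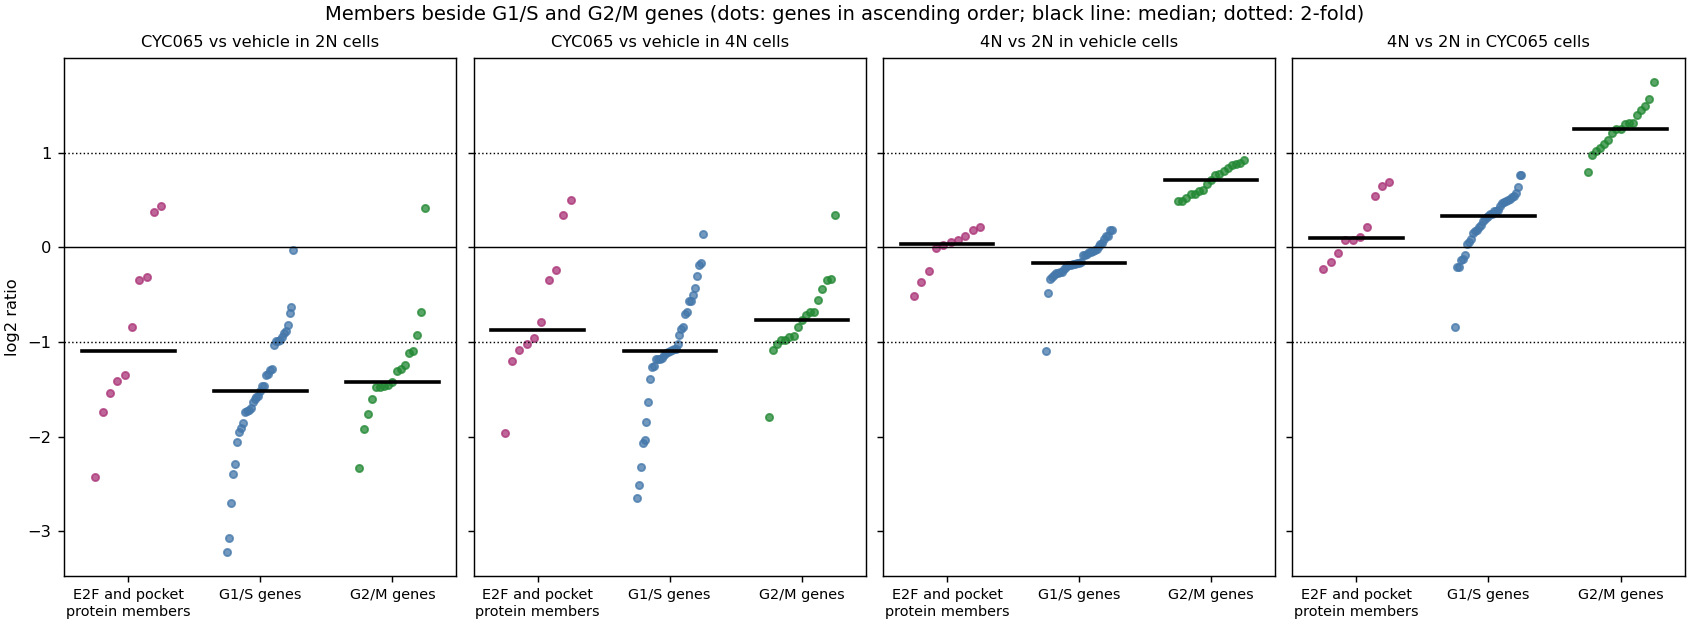
Log2 ratio between libraries for the 10 E2F and pocket protein genes, the 35 G1/S genes and the 17 G2/M genes. Dots are genes in ascending order, black lines the median and dotted lines mark 2-fold. For CYC065 in 2N and 4N cells the medians were -1.09 and -0.87 for the 10 genes, -1.52 and -1.10 for the G1/S genes and -1.42 and -0.77 for the G2/M genes, and for 4N against 2N with vehicle and CYC065 they were 0.04 and 0.10, -0.17 and 0.33, and 0.71 and 1.25.

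The genes linked to E2F6 were read beside it. Of 9 subunits of its Polycomb complex PRC1.6, *L3mbtl2* (-1.34) and *Ring1* (-1.14) were more than 2-fold lower in 2N cells (median -0.19), *Ring1* (-1.36) in 4N cells (median -0.30) and *L3mbtl2* (-1.34) in unsorted cells (median -0.14). Over all genes, 11.5%, 10.1% and 12.6% were more than 2-fold lower in these fractions, so such small counts do not mark the complex out. Of 12 germline genes known to be repressed by E2F6, only *Tdrkh* and *Taf7l* had enough counts in at least 1 comparison. *Tdrkh*, a gene of the piRNA pathway, stood at 50.2 CPM in 2N cells with vehicle and 11.7 with CYC065, a log2 ratio of -2.10, with -2.17 in 4N and -1.94 in unsorted cells. *Taf7l* was also past 2-fold lower in 2N and 4N cells (-1.32 in 4N) but did not exceed 1.09 CPM, and the other 10 did not exceed 0.240 CPM in any library.

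Of 8 apoptosis genes known as E2F1 targets, 6 had enough counts, and *Trp73* and *Pmaip1* were at or near 0. In 2N cells 3 were more than 2-fold higher and none lower (median 0.92), in 4N cells 3 higher and 1 lower (median 0.83) and in unsorted cells 2 higher and 1 lower (median 0.31). *Trp53inp1*, which is also a known p53 target, stood at 1.48 CPM in 2N cells with vehicle and 59.6 CPM with CYC065, a log2 ratio of 5.33, with 5.22 in 4N and 3.74 in unsorted cells. The BH3-only genes *Bcl2l11* and *Bbc3* had 1.44 and 1.67 in 2N and 1.51 and 1.21 in 4N cells. *E2f1* itself was lower in these same comparisons.

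Profiles over the 6 libraries were compared by the root mean square difference of centered log2 CPM across 10816 genes. *E2f7* and *E2f8* were 0.10 apart, and *E2f8* was among the 3 genes nearest to *E2f7*, after *Adat1* (0.048) and *Pola1* (0.091), the DNA polymerase alpha gene. The nearest to *Rbl1* were *Fanca* (0.104), *Rrm2* (0.106) and *Gen1* (0.111), genes of DNA crosslink repair, deoxynucleotide synthesis and junction resolution. *Rrm2* had fractional counts in 14 of 18 columns and is uncertain to that extent. *E2f2* was nearest to *Dna2* (0.099), *Rad1* (0.132) and *Mrm3* (0.154), and *E2f1* to *Phykpl* (0.089), *Bend3* (0.099) and *Ccdc85b* (0.100). The largest distance within the family was that between *Rb1* and *Rbl1*, at 1.46, whereas *Rb1* and *E2f5* were 0.19 apart. *Rb1* was nearest to *Cuedc1* (0.049), *Fam173a* (0.059) and *Samd8* (0.080), and *E2f8* to Gm49383 (0.058), *Pmf1* (0.065) and *Zfand4* (0.071). Closer neighbors were found for *E2f4* in *Elp4* (0.016), *Tjap1* (0.027) and *Rexo2* (0.032), and for *E2f3* in *Spata13* (0.046), *Pygo2* (0.054) and *Ifi35* (0.056). *E2f5* was nearest to *Supt5* (0.031), *Ankrd46* (0.041) and *Ddt* (0.041), and *E2f6* to *Selenot* (0.032), *Tmem70* (0.033) and *Ccdc43* (0.033).

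In the mm10 annotation, *E2f1* lies on chromosome 2 (154559407 to 154569892, minus strand) and *Rbl1* on the same chromosome (157145893 to 157204534, minus strand). *E2f7* lies on chromosome 10 (110745439 to 110787384, plus strand), *E2f8* on chromosome 7 (48866429 to 48881596, minus strand) and *Rb1* on chromosome 14 (73183673 to 73325822, minus strand). *E2f2* lies on chromosome 4 (136172394 to 136196057, plus strand), *E2f3* on chromosome 13 (29906575 to 29986063, minus strand) and *E2f4* on chromosome 8 (105297663 to 105305370, plus strand). *E2f5* lies on chromosome 3 (14578641 to 14606309, plus strand) and *E2f6* on chromosome 12 (16810963 to 16839742, plus strand).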

How the data were processed

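RNA-Seq was done on ED1SQ4 cells with Illumina stranded total RNA libraries depleted of ribosomal RNA. The authors trimmed reads, aligned them to mm10 and quantified GENCODE M21 genes. The submitters' processing notes name bcl2fastq 2.17, cutadapt 1.18, STAR 2.7.0f and RSEM 1.3.1, and the methods of the study give other versions for bcl2fastq and RSEM. The authors deposited gene-level expected counts from RSEM without further scaling or filtering, in 18 columns, 3 for each of 6 conditions, and 0 columns were left out. A fractional value occurred in 9.66% of genes but in none of the 10 members.

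The 3 columns of a condition are parts of 1 library by their library names and were summed. Levels are CPM scaled by TMM over the 6 libraries (edgeR 4.0.16 in R 4.3.3). Ratios of expected counts, after rounding, used a prior count of 0.5 and exact conditional binomial 95% intervals, computed with Python 3.11.15, NumPy 2.4.6, SciPy 1.17.1 and pandas 2.3.3, and were checked on simulated data. A gene entered a comparison with at least 30 summed counts in at least 1 of its libraries, and was counted when past 2-fold, the study's fold criterion. No P value was computed. The members and lists were chosen with earlier results of these data known. All members were named, with every list gene past 2-fold where at most 4 were, otherwise the 2 most changed in each direction, and the 3 nearest profiles among genes with at least 100 counts in every library. *Cdt1*, *Brca1*, *Ccne1*, *Ccnd2*, *Ccnd3*, *Cdk2*, *Cdk6*, *Cdkn1a*, *Cdkn2b*, *Cdkn2c* and *Cdkn2d* were chosen after their values were seen. This rule does not name them in every comparison given. Some list genes counted in the totals are not reported here by name.

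Alternatives were scaling by library size or by DESeq2 1.42.0 size factors, TMM within sorted and unsorted libraries, other count minimums, a prior count of 5, a threshold of 1.5-fold, leaving out each part, and, added after the data were seen, merged exon lengths.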

Additional observations from a re-analysis of the deposited data

How the results depend on the processing

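Of the 60 log2 ratios of the 10 genes, none that was past 2-fold changed sign under any alternative. With library size scaling alone 9 of 60 moved outside their counting interval, by at most 0.11, and under the other scalings, the prior count of 5 and without any 1 part all 60 stayed inside it. The sign changed only for ratios near 0. Library size scaling moved the median of all genes in unsorted cells by -0.11, and 57.8% of its calls there were lower, against 50.0% in the reported values. Without any 1 part the number of genes past 2-fold stayed at 5 in 2N and 4 in 4N cells, and was 5 to 6 in unsorted cells. Membership near the threshold changed: without the second part *E2f2* in 4N cells was past 2-fold at -1.02 and *E2f8* was not, at -0.98. In 4N cells 3 genes passed with library size scaling and 5 with DESeq2 size factors. At 1.5-fold, 2 genes (*E2f7* and *Rbl1*) passed in the comparison of 4N with 2N CYC065-treated cells and 1 (*E2f7*) in the difference between treatments.

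The share of all genes past 2-fold rose without a count minimum to 46.7% in 2N, 44.3% in 4N and 42.7% in unsorted cells for CYC065, 24.3% and 27.3% for 4N against 2N with vehicle and CYC065, and 35.5% for the difference between treatments. More genes were then compared, among them genes with few counts. At 1.5-fold these shares were 49.5%, 47.4%, 46.9%, 9.19%, 9.82% and 16.1%. With a minimum of 100 summed counts they were 1.04% and 1.82% for 4N against 2N with vehicle and CYC065, and 2.51% for the difference. Without any 1 part the shares were 26.6% to 26.9% in 2N, 24.1% to 24.4% in 4N and 24.5% to 24.8% in unsorted cells, 1.95% to 2.31% and 3.06% to 3.23% for 4N against 2N, and 6.00% to 6.11% for the difference. Levels per kilobase moved with the exon length used. No paired analysis was possible because the 3 replicates are parts of 1 library and no test was run.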
